A study of Homo sapiens with 8 samples.

Results

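PU.1 and 8 other transcription regulators that set myeloid cell fate were followed in bulk RNA of MOLM-13, an established human acute myeloid leukemia line with a KMT2A-AF9 fusion. The members were chosen by gene symbol as fate factors of progenitors, monocytes and granulocytes outside the C/EBP, IRF and RUNX families: SPI1 (which encodes PU.1), GFI1, KLF4, EGR1, ZEB2, BATF3, MYB, LMO2 and GATA2. All 9 symbols were present among the 26475 genes of the table, and all 9 passed the filter that left 12401 genes for testing. The cells, labelled wild type, received the vehicle DMSO, the Menin inhibitor VTP50469, the KAT6A inhibitor WM1119 (spelled WM119 in the sample labels), or both inhibitors; each of the 4 groups has 2 libraries, for a total of 8. Every group shares the KMT2A fusion and comes from 1 cell line. The sources used here give no dose and no treatment time, and they do not say if replicates were grown as separate cultures, so p-values measure the spread between these libraries, which may be technical. The comparisons ask what each inhibitor alone and the pair did to the level of each fate factor.

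As background, PU.1 is an ETS family factor that opens and activates genes of monocytes, macrophages and granulocytes, and a rising PU.1 dose favors the macrophage fate. GFI1 is a repressor that favors granulocytes, while the zinc finger factors KLF4 and EGR1 favor monocytes, so GFI1 and EGR1 are often described as opposed. ZEB2 and BATF3 act in monocyte and dendritic cell development. MYB, LMO2 and GATA2 belong to the stem and progenitor state: MYB sustains proliferation of blasts, LMO2 bridges other factors without touching DNA itself, and GATA2 and PU.1 restrain each other. Menin tethers KMT2A and its fusions to chromatin, and KAT6A acetylates histone H3.

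Promoter sequences are shown for EGR1, which holds serum response boxes, and for KLF4 and GATA2, which hold the PU.1 core letters. RefSeq promoters on GRCh38.p14 (windows of 300 bases around each start) were matched for 6 of the 9 members, with 9 windows in all; SPI1, BATF3 and LMO2 had no entry. The EGR1 promoter holds 2 serum response boxes (CArG boxes), given in capitals, which are the classic landing sites for the factor that switches on immediate early genes. Of 35116 promoter windows in the RefSeq table, 1.29% hold a CArG box. The PU.1 core letters GAGGAA, searched on both strands like all other letters here, were found in 4 of the 9 member windows (1 each of GFI1, KLF4, MYB and GATA2) and in 27.9% of all windows. The stretches of KLF4 and GATA2 are shown with these letters in capitals. EGR1 is read at chr5:138465329-138465478, plus strand, upstream of the gene; KLF4 at chr9:107489790-107489849 and GATA2 at chr3:128488674-128488733, both minus strand and both within an intron of a longer transcript of the same gene in GENCODE release 44.
EGR1 promoter: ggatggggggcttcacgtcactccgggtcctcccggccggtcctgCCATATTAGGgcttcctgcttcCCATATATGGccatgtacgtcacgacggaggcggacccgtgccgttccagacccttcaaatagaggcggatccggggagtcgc
KLF4 promoter: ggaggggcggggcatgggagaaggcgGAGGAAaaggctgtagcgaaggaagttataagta
GATA2 second promoter: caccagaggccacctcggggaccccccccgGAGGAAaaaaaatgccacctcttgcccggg

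Other letters were searched in the same 9 windows. The MYB letters AACNG were in 7 (77.2% of all windows) and the stricter AACTG, which is contained in them, in 3 (39.7%). The KLF letters CCACCC were in 3 (34.3%), the short GFI1 letters AAATC in 2 (33.1%) and the ZEB E-box CAGGTG in 1 (20.6%). The GATA letters AGATAA (10.3%), the EGR letters GCGTGGGCG (0.795%) and GCGGGGGCG (5.07%), the E-box CAGATG (14.7%), the AP-1 letters TGANTCA (7.71%) and the CRE letters TGACGTCA (1.85%) were in 0 of the 9. A match is a description of these letters and not a bound site.

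Library totals ran from 18092906 to 23634468 counts, and 12972 to 14544 genes had a count. Combination replicate 2 stood apart: it had the 12972 genes against 14142 or more in the other 7, and its correlation with replicate 1 was 0.940 against 0.985 to 0.989 within the other groups (Pearson, log2 values, across genes, which are not independent replicates). Of the 9 markers set for the labelled line, 8 were detected in every group, and ANPEP had no count in DMSO, WM1119 or the combination. Of the 8 tested, CD33 and LYZ were called higher and FLT3 lower in the combination by edgeR, against 5.85% and 3.44% of all genes. The calls of CD33 and FLT3 were lost when any 1 library of DMSO or of a single inhibitor was left out. Summed levels of T and NK markers were 22.3 to 25.2 CPM (counts scaled to a fixed library total) in DMSO and 33.2 and 84.3 CPM in the combination, most of it NKG7 (82.1 CPM in combination replicate 2), while CD3E and CD3G had no count in any group. CD2 was at 0.806 and 0.868 CPM in the combination against 0.0541 and 0 in DMSO; it passed the count filter only through the combination, so its test is not read. The summed markers of dendritic cells stayed at or under 0.664 CPM in each library, those of B and plasma cells at or under 3.16 CPM and those of megakaryocytes at or under 3.66 CPM, HBB, HBA1, ALAS2 and AHSP had no count, and epithelial and stromal markers summed to 3.10 CPM or less. The part of these genes in the results was not tested. In bulk RNA, fewer cells of a type and less RNA per cell cannot be told apart.

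Compared per kilobase of transcript, PU.1 was the most abundant of the 9 in DMSO. Its mRNA stood at 105 CPM per kb (SD 4.37, n = 2), ahead of MYB at 90.4 (SD 0.473). LMO2 followed at 31.7 CPM per kb (SD 0.979). GFI1 at 22.6 (SD 0.718), BATF3 at 21.8 (SD 1.13) and ZEB2 at 21.6 CPM per kb (SD 0.0953) came next. BATF3 did not differ from the other two beyond its spread, while both GFI1 libraries lay above both ZEB2 libraries. GATA2 at 3.45 (SD 0.0381), EGR1 at 2.14 (SD 0.0737) and KLF4 at 2.01 CPM per kb (SD 0.285) were rare, and the last 2 of these did not differ beyond their spread either. In the combination the top 4 kept their order, with SPI1 at 240 (SD 89.6), MYB at 71.5 (SD 21.5), LMO2 at 58.9 (SD 14.6) and GFI1 at 27.2 CPM per kb (SD 4.63), but MYB and LMO2 no longer differed beyond their spread. BATF3 at 11.8 (SD 3.27) and ZEB2 at 11.1 CPM per kb (SD 7.38) again lay side by side, and at the bottom KLF4 at 2.35 (SD 0.0430) and GATA2 at 2.24 CPM per kb (SD 0.133) stood above EGR1 at 0.981 (SD 0.409).

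**Figure D1:**
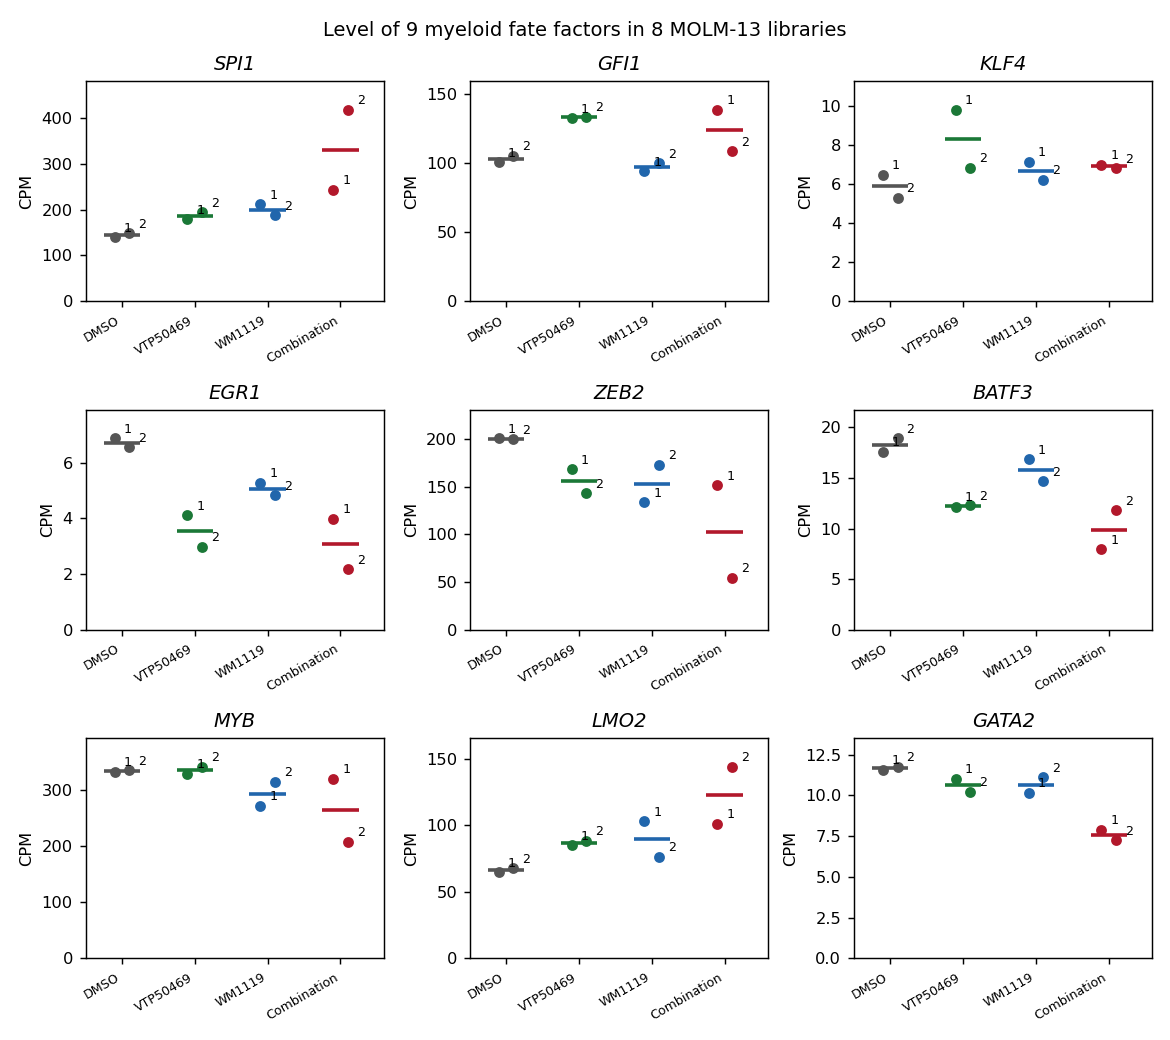
Level of each factor in CPM (vertical axis, from 0, with its own scale per gene) in the 8 libraries, by treatment group; each point is a library with its replicate number beside it, and lines are group means (n = 2). All 6 treated libraries lie above both DMSO libraries for SPI1 and LMO2 (as for 11.4% of all genes tested). They lie below them for EGR1, ZEB2, BATF3 and GATA2 (as for 11% of all genes tested). All treatments share the same 2 DMSO libraries.

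SPI1 rose with the 2 inhibitors together. The gene (ENSG00000066336.12) lies at chr11:47354860-47378547 on the minus strand of hg38. It read 140 and 149 CPM in DMSO, 179 and 194 with VTP50469, 212 and 188 with WM1119, and 243 and 417 CPM in the combination (replicates 1 and 2). All 6 treated libraries were above both DMSO libraries, and both combination libraries were above the 4 libraries of the single inhibitors. The change from DMSO to the combination was log2 1.19 (SE 0.25), a 2.29-fold rise that edgeR called at adjusted p 0.0324. With VTP50469 alone the difference was log2 0.37 (SE 0.24, edgeR adjusted p 0.999) and with WM1119 alone log2 0.47 (SE 0.24, edgeR adjusted p 1), neither called. Direct comparison of the combination with VTP50469 (log2 0.82, edgeR adjusted p 0.181) or with WM1119 (log2 0.72, edgeR adjusted p 0.221) did not pass. The call against DMSO was lost in edgeR when any 1 library of DMSO or of a single inhibitor was left out. A replicate block and a fit of only the groups compared lost the call too. It held without either combination library, at log2 0.77 without replicate 2 and 1.52 without replicate 1 (14.5% and 60.8% of all genes were called in these fits), and with an offset for transcript length and GC content the rise was log2 0.61 (edgeR adjusted p 0.00179).

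Known targets of PU.1 were higher in the combination. Of 20 targets, all tested, 13 were called higher (65% of them, against 5.85% of all genes tested) and 0 lower (3.44% of all genes). Their median was log2 1.65 against 0.01 over all genes. That median and the count of 20 include CD14 and IL1B, which passed the count filter only through the combination. The list was chosen with earlier results of these data known, so these values describe it and test nothing about PU.1. LYZ, the secreted lysozyme of monocytes, read 541 and 598 CPM in DMSO, against 6374 and 8431 CPM with both inhibitors. CSF1R, the M-CSF receptor, went from 4.33 and 4.65 CPM to 28.3 and 27.8 CPM (log2 2.64, SE 0.16, edgeR adjusted p 0.00156), with 10.7 and 9.75 CPM under VTP50469 and 11.0 and 11.5 CPM under WM1119. In both of these genes each combination library lay above all libraries of the other groups.

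The 13 included subunits of the phagocyte oxidase and receptors. CYBB, the membrane subunit of the oxidase, rose (log2 2.55, SE 0.20, edgeR adjusted p 0.00212), as did CSF3R, the G-CSF receptor (log2 2.39, SE 0.20, edgeR adjusted p 0.00224), and TLR4, the endotoxin receptor (log2 2.05, SE 0.31, edgeR adjusted p 0.0131). ITGAM, the CD11b integrin chain, was called too. Others called, named after their values were seen, were ELANE, FES, CSF2RA, NCF4 and NCF1, and NCF1 has near-identical pseudogenes, so its counts are uncertain. Of the 7 that did not pass, the monocyte co-receptor CD14 and IL1B passed the count filter only through the combination. The tests of CD14 and IL1B are therefore not read. CD14 read 0.271 and 0.190 CPM in DMSO, against 0.975 and 2.85 CPM with both inhibitors. IL1B read 0.379 and 0.285 CPM in DMSO, against 0.848 and 0.558 CPM with both inhibitors. BTK (log2 -0.07), JUNB (-0.13) and MSR1 (-2.05, SE 0.95, edgeR adjusted p 0.190), also among the 7, lay below 0. MSR1 was rare, at 0.595 and 1.19 CPM in DMSO, against 0.382 and 0 CPM with both inhibitors.

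With VTP50469 alone 2 of the 20 were called higher (LYZ at log2 1.82, edgeR adjusted p 0.0284, and CYBB at log2 1.75, edgeR adjusted p 0.0352), where 0.169% of all genes were called in either direction. WM1119 alone called 0 of the 20 and 0% of all genes in edgeR; CSF1R had the lowest p there (log2 1.32, edgeR adjusted p 0.200). Against VTP50469 the combination was called higher for 4 targets, among them CSF1R, ITGAM and LYZ (0.395% of all genes called), and against WM1119 for 7, among them these as well as CSF3R, CYBB and TLR4 (1.43% of all genes). The count of 13 was 6 without DMSO replicate 1 or 2 (0.327% and 0.397% of all genes called higher) and 8 without any 1 single inhibitor library (2.01% to 2.38%). It was 16 and 14 without the first and second replicate of the combination (28.9% and 8.9% of all genes), and 0 in an edgeR fit of the combination and DMSO alone (0%). These settings were applied to this count after the data were seen. LYZ, CYBB, CSF3R, CSF1R and ITGAM stayed called whichever 1 library was left out (highest edgeR adjusted p 0.0455), TLR4 was lost without DMSO replicate 1 or 2, and ELANE, FES, CSF2RA, NCF4 and NCF1 were lost when any 1 library of DMSO or of a single inhibitor was left out. Without combination replicate 2 the values of ELANE, NCF1 and FES were log2 1.07, 1.10 and 0.68, against 1.80, 1.88 and 1.02 with all libraries.

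**Figure D2:**
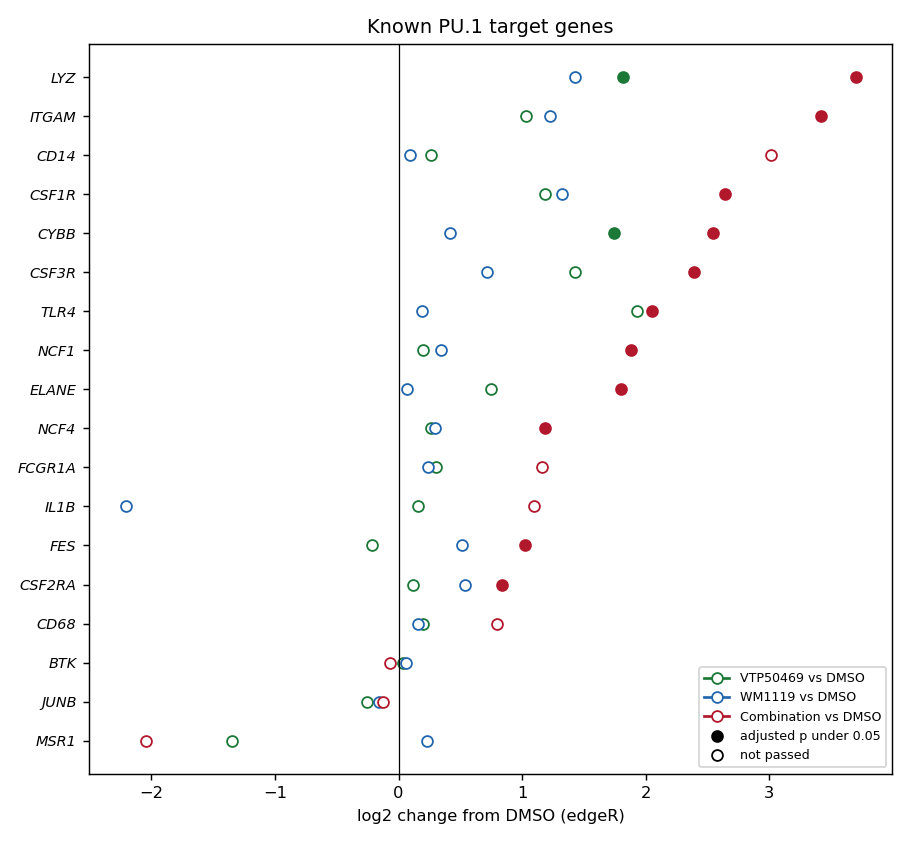
Change from DMSO in log2 units (horizontal axis) of 18 of the 20 known PU.1 target genes (rows, ordered by the combination) with each treatment, 2 libraries per group; filled points passed an edgeR adjusted p of 0.05. The combination has 11 filled points, VTP50469 has 2 and WM1119 has 0. CD14 and IL1B passed the count filter only through the combination, so their tests are not read.

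Of 15 other ETS factors 13 were tested, with 0 called higher and 1 lower in the combination (median log2 -0.54), where 5.85% and 3.44% of all genes were called in these directions. The 1 was SPIB, the closest relative of PU.1 and a factor of B cells and plasmacytoid dendritic cells. It read 30.2 and 30.9 CPM in DMSO, 19.1 and 17.3 with VTP50469, 30.7 and 29.6 with WM1119, and 10.5 and 15.7 CPM in the combination (log2 -1.23, SE 0.21, edgeR adjusted p 0.0182). Its call was lost when any 1 library of DMSO or of a single inhibitor was left out (highest edgeR adjusted p 0.138). ETS2 (log2 -0.91, edgeR adjusted p 0.0674) and ETS1 (log2 -0.87, edgeR adjusted p 0.0982) did not pass. FLI1, an ETS factor of blood progenitors and megakaryocytes, was at log2 0.12 (edgeR adjusted p 0.651).

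LMO2, the bridging protein of progenitor factor complexes, rose in the combination as well. The gene (ENSG00000135363.12) lies at chr11:33858576-33892076 on the minus strand. Its levels were 64.6 and 67.5 CPM in DMSO, 85.1 and 88.2 with VTP50469, 103 and 76.3 with WM1119, and 101 and 144 CPM in the combination. Every treated library was above DMSO, and combination replicate 1 overlapped with WM1119 replicate 1. The change with both inhibitors was log2 0.89 (SE 0.22, 1.85-fold) at an edgeR adjusted p of 0.0495, barely inside the threshold. It was log2 0.39 with VTP50469 and 0.44 with WM1119, neither called by edgeR (adjusted p 0.962 and 1). The value with WM1119 was log2 0.21 without WM1119 replicate 1 and 0.63 without replicate 2. The call in the combination was lost in edgeR when any 1 library of DMSO or of a single inhibitor was left out, and with RLE factors (adjusted p 0.0501). Limma quality weights, a replicate block and a fit of only the groups compared lost it too. The value in the combination was log2 0.63 without combination replicate 2 and 1.11 without replicate 1. With the offset for transcript length and GC content LMO2 was at log2 0.61 (edgeR adjusted p 0.0152), where 22.8% of all genes were called. DESeq2 gave adjusted p 0.00448, with 17.7% of all genes called.

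Of 16 genes of LMO2 complexes and of the stem cell program 12 were tested, with 1 called higher and 0 lower in the combination (median log2 -0.21), where 5.85% and 3.44% of all genes were called. LYL1, a helix-loop-helix partner of LMO2, read 26.6 and 26.4 CPM in DMSO, 39.3 and 45.2 with VTP50469, 42.8 and 38.1 with WM1119, and 47.1 and 90.7 CPM in the combination (log2 1.38, SE 0.29, edgeR adjusted p 0.0358). All treated libraries stood above DMSO, and the call was lost when any 1 library of DMSO or of a single inhibitor was left out; with the offset for length and GC content the value was log2 0.77, and without combination replicate 2 it was log2 0.84. TAL1, GATA1 and ERG, other members of such complexes, had no count in any library. TCF3, an E protein partner, was at log2 -0.52 (edgeR adjusted p 0.0597). GATA3 read 1.03 and 1.14 CPM in DMSO, against 0.212 and 0 CPM with both inhibitors. GATA3 passed the count filter only through the DMSO libraries, so its test is not read. The 12 tested genes and their median include GATA3.

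GFI1 was not called in any comparison by edgeR with all 8 libraries and no offset, and its libraries lay on opposite sides of DMSO with the 2 inhibitors. The repressor (ENSG00000162676.13, chr1:92473043-92486925, minus strand) read 101 and 105 CPM in DMSO, 133 and 134 with VTP50469, 94.3 and 99.9 with WM1119, and 139 and 109 CPM in the combination. Both VTP50469 libraries were above DMSO, both WM1119 libraries were below it, and the combination libraries lay above DMSO and far apart. The values were log2 0.37 (SE 0.15) with VTP50469, -0.09 (SE 0.15) with WM1119 and 0.26 (SE 0.15) in the combination (edgeR adjusted p 0.694, 1 and 0.257). VTP50469 against WM1119 directly gave log2 0.46 (SE 0.15, unadjusted p 0.0183, edgeR adjusted p 0.655), in a comparison where 0.0323% of all genes were called. With VTP50469 it was called when limma gave each library a quality weight (adjusted p 0.00917) and when only the groups compared were fitted (edgeR adjusted p 0.00456), settings that called 9.39% and 11.1% of all genes. In the combination GFI1 was at log2 0.44 without replicate 2 and 0.07 without replicate 1. It was called there with the offset for length and GC content (log2 0.44, edgeR adjusted p 0.00854), which called 22.8% of all genes.

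Of 8 corepressors and partners of GFI1, 7 were tested and 0 passed in either direction in the combination, against 9.29% of all genes. KDM1A, the histone demethylase that GFI1 recruits, had the lowest p, at 140 and 146 CPM in DMSO, against 112 and 103 CPM with both inhibitors (log2 -0.41, edgeR adjusted p 0.0753). GFI1B, the erythroid relative, had no count. Of 10 genes that GFI1 is known to repress 7 were tested. In the combination 1 was called higher (CSF1R) and 2 lower, where 5.85% and 3.44% of all genes were called. CDKN1A, which encodes the cell cycle inhibitor p21, read 88.1 and 76.2 CPM in DMSO, 38.9 and 39.8 with VTP50469, 48.2 and 45.4 with WM1119 and 27.5 and 33.2 CPM in the combination (log2 -1.44, SE 0.15, edgeR adjusted p 0.00443; lost without DMSO replicate 1). MEIS1, a homeobox cofactor and a target of KMT2A fusions, went from 32.8 and 28.9 CPM to 10.8 and 2.85 CPM (log2 -2.15, SE 0.51, edgeR adjusted p 0.0467), with log2 -3.45 without combination replicate 1, and its call was lost when any 1 library of DMSO or of a single inhibitor was left out.

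EGR1 was lower in every treated library. The immediate early factor (ENSG00000120738.8, chr5:138465479-138469303, plus strand), with the 2 CArG boxes in its promoter, was rare: 6.87 and 6.55 CPM in DMSO, 4.12 and 2.99 with VTP50469, 5.28 and 4.83 with WM1119, and 3.99 and 2.17 CPM in the combination. No treated library reached either DMSO library, and VTP50469 and the combination overlapped. None of the differences passed: log2 -0.92 (SE 0.32) with VTP50469, -0.41 (SE 0.32) with WM1119 and -1.11 (SE 0.33) in the combination (edgeR adjusted p 0.581, 1 and 0.0815). DESeq2 called the combination (adjusted p 0.0311), with 17.7% of all genes called. In edgeR the value was log2 -1.64 without combination replicate 1 and -0.74 without replicate 2. VTP50469 was called with limma quality weights (adjusted p 0.0108) and with only the groups compared (edgeR adjusted p 0.0266). These settings called 9.39% and 11.1% of all genes.

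Other genes of the EGR1 circuit gave a mixed picture. NAB2, a corepressor that EGR1 induces and that restrains it in turn, fell in the combination, from 29.4 and 21.8 CPM to 11.4 and 13.8 CPM (log2 -1.03, SE 0.20, edgeR adjusted p 0.0258), with 17.4 and 16.1 CPM under VTP50469 and 19.0 and 18.3 CPM under WM1119. That call was lost when any 1 library of DMSO or of a single inhibitor was left out. Of 5 EGR and NAB genes only NAB2 and NAB1 had enough counts for a test, and NAB1 was at log2 -0.16 (edgeR adjusted p 0.643). Of 13 immediate early genes, all tested, 1 was called higher and 0 lower (median log2 -0.32), against 5.85% and 3.44% of all genes. IER3, an inducible survival factor, read 2.44 and 2.89 CPM in DMSO, against 9.12 and 13.8 CPM with both inhibitors (log2 2.10, SE 0.33, edgeR adjusted p 0.0147; lost without DMSO replicate 1 or 2). JUN (log2 0.78, edgeR adjusted p 0.0736) and IER2 (log2 0.73, edgeR adjusted p 0.0937) did not pass.

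KLF4, the monocyte-promoting zinc finger factor, was as rare as EGR1 and showed no called difference. The gene (ENSG00000136826.15) lies at chr9:107484852-107490482 on the minus strand. It read 6.49 and 5.31 CPM in DMSO, 9.81 and 6.85 with VTP50469, 7.15 and 6.24 with WM1119, and 7.0 and 6.82 CPM in the combination. The VTP50469 and combination libraries lay above DMSO, while WM1119 overlapped with it. The differences were log2 0.50 (SE 0.24), 0.18 (SE 0.24) and 0.23 (SE 0.24), with edgeR adjusted p 0.860, 1 and 0.517. Single libraries moved these values: without 1 library each they ran from log2 0.22 to 0.72 with VTP50469 (its replicate 1 and 2 left out), and, without DMSO replicate 2 and 1, from 0.05 to 0.33 with WM1119 and from 0.08 to 0.37 in the combination. Of 14 other KLF factors 12 were tested and 0 were called in the combination by edgeR (median log2 -0.15), against 9.29% of all genes. KLF11, a TGF-beta induced repressor, had the lowest p (log2 -1.14, edgeR adjusted p 0.0866).

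BATF3 fell in the combination. This AP-1 type factor of conventional dendritic cells (ENSG00000123685.9, chr1:212686417-212699840, minus strand) read 17.6 and 18.9 CPM in DMSO, 12.2 and 12.3 with VTP50469, 16.9 and 14.7 with WM1119, and 7.97 and 11.8 CPM in the combination. All treated libraries were below DMSO, and both combination libraries were below the 4 libraries of the single inhibitors. The change was log2 -0.89 (SE 0.22), 54.3% of the DMSO mean, at an edgeR adjusted p of 0.04997, the closest of the 3 calls to the threshold. With VTP50469 it was log2 -0.58 (SE 0.21, edgeR adjusted p 0.630) and with WM1119 log2 -0.21 (SE 0.21, edgeR adjusted p 1). The call was lost when any 1 library of DMSO or of a single inhibitor was left out, with RLE factors and with at least 10 counts required in every library. Limma quality weights, a replicate block and a fit of only the groups compared lost the call too. The value in the combination was log2 -1.18 without combination replicate 2 and -0.64 without replicate 1. The offset for length and GC content gave log2 -1.52 (edgeR adjusted p 0.00105), with 22.8% of all genes called.

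ZEB2, a repressor that binds E-boxes and is needed for monocyte and plasmacytoid dendritic cell fates, was lower in all treated libraries but not called. It lies at chr2:144364364-144521057 on the minus strand (ENSG00000169554.23) and read 201 and 200 CPM in DMSO, 168 and 143 with VTP50469, 134 and 173 with WM1119, and 151 and 54.7 CPM in the combination. Combination replicate 1 lay among the single inhibitor libraries and replicate 2 was far below every other library. The combination gave log2 -0.96 (SE 0.42, edgeR adjusted p 0.177), which was log2 -0.39 without replicate 2 and -1.89 without replicate 1, where it was called with 60.8% of all genes. VTP50469 gave log2 -0.36 and WM1119 -0.39 (edgeR adjusted p 0.999 and 1). ZEB2-AS1, which overlaps ZEB2 on the other strand, had 0 to 9 counts per group.

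Among 12 relatives and dendritic cell factors 10 were tested (median log2 -0.15 in the combination). There 0 were called higher and 1 lower, against 5.85% and 3.44% of all genes. The 1 was IRF8, the factor that drives monocytes and dendritic cells, at 685 and 695 CPM in DMSO, 506 and 490 with VTP50469, 725 and 777 with WM1119, and 440 and 300 CPM in the combination (log2 -0.90, SE 0.19, edgeR adjusted p 0.0339). Its WM1119 libraries lay above DMSO and its combination libraries below every other library, and the call was lost when any 1 library of DMSO or of a single inhibitor was left out. NFIL3 was at log2 -0.61 (edgeR adjusted p 0.0630). IRF4, a partner of BATF factors, had no count.

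MYB, the blast factor, was the second most abundant member per kilobase and did not pass in any comparison with all 8 libraries. The gene (ENSG00000118513.20) lies at chr6:135181308-135219173 on the plus strand. It read 332 and 334 CPM in DMSO, 328 and 341 with VTP50469, 271 and 314 with WM1119, and 319 and 207 CPM in the combination. VTP50469 overlapped with DMSO, and the WM1119 and combination libraries were below it. The differences were log2 0.01 (SE 0.21), -0.19 (SE 0.21) and -0.34 (SE 0.21), with edgeR adjusted p 0.999, 1 and 0.292. For the combination the value was log2 -0.05 without replicate 2 and -0.70 without replicate 1, where it was called with 60.8% of all genes.

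Of 5 MYB relatives and coactivators, all tested, 0 passed in the combination by edgeR, against 9.29% of all genes. EP300, a histone acetyltransferase that MYB recruits, was at log2 -0.99 (edgeR adjusted p 0.283). Of 8 MYB targets 6 were tested. With both inhibitors 2 were called higher and 1 lower, against 5.85% and 3.44% of all genes. MPO, the myeloperoxidase of granulocyte precursors, read 48.6 and 40.0 CPM in DMSO, 689 and 897 with VTP50469, 99.7 and 106 with WM1119, and 1421 and 2214 CPM in the combination. ELANE, neutrophil elastase and also a PU.1 target, went from 324 and 356 CPM to 709 and 1662 CPM (log2 1.80, SE 0.36, edgeR adjusted p 0.0304). MYC fell from 472 and 502 CPM to 339 and 262 CPM (log2 -0.70, SE 0.15, edgeR adjusted p 0.0379). MPO stayed called whichever library was left out, while ELANE and MYC were lost when any 1 library of DMSO or of a single inhibitor was left out.

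GATA2, the stem and progenitor GATA factor, was lowest in the combination in both libraries. It lies at chr3:128479427-128493201 on the minus strand (ENSG00000179348.13) and read 11.6 and 11.8 CPM in DMSO, 11.0 and 10.2 with VTP50469, 10.2 and 11.1 with WM1119, and 7.89 and 7.25 CPM in the combination. The 2 combination libraries were close together and below all 6 others. The difference from DMSO, log2 -0.62 (SE 0.16), fell short in edgeR (adjusted p 0.0583). It passed in DESeq2 (adjusted p 0.0347) and with the offset for length and GC content (log2 -0.73, edgeR adjusted p 0.0160). DESeq2 and the offset called 17.7% and 22.8% of all genes. With either inhibitor alone it was log2 -0.13 (edgeR adjusted p 0.999 and 1). Directly against VTP50469 and WM1119 the combination stood at log2 -0.49 in both cases (edgeR adjusted p 0.210 in each). GATA2-AS1 overlaps GATA2 on the opposite strand and averaged 5.62 CPM in DMSO against 5.41 CPM with both inhibitors, and the strand setting of the counting is not given, so reads of the pair cannot be told apart.

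Over the 9 members, the combination called 2 higher and 1 lower, where 5.85% and 3.44% of all genes were called in these directions and 9.29% in either. At an unadjusted p under 0.05 there were 5 members (30.3% of all genes). VTP50469 and WM1119 alone called 0 members in edgeR, against 0.169% and 0% of all genes. Of the members, 3 and 0 had an unadjusted p under 0.05 (6.75% and 4.94% of all genes). DESeq2 called 0 members in both, against 1.54% and 0.62% of all genes. With limma quality weights VTP50469 called SPI1, GFI1 and LMO2 higher and EGR1 and BATF3 lower, and with only the groups compared in edgeR these and ZEB2, lower (9.39% and 11.1% of all genes). The direct comparisons also called 0 members in edgeR. Combination against VTP50469 had 2 members at an unadjusted p under 0.05 (17.9% of all genes), and DESeq2 called 1 (5.3% of all genes). Combination against WM1119 had 3 (16.7%), and DESeq2 called 0 (5.53%). VTP50469 against WM1119 had 1 (5.39%), and DESeq2 called 0 (1.12%). The interaction tests for a departure of the combination from adding up the 2 single changes in log2 units. It called 0 members and 0% of all genes in edgeR. At an unadjusted p under 0.05 there were 0 members and 2.2% of all genes. DESeq2 called 0 members and 0.0305% of all genes. The interaction values in edgeR were log2 0.36 (SE 0.34) for SPI1, 0.06 (SE 0.30) for LMO2, -0.10 (SE 0.30) for BATF3 and -0.36 (SE 0.23) for GATA2. A missed threshold does not show that values did not differ.

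**Figure D3:**
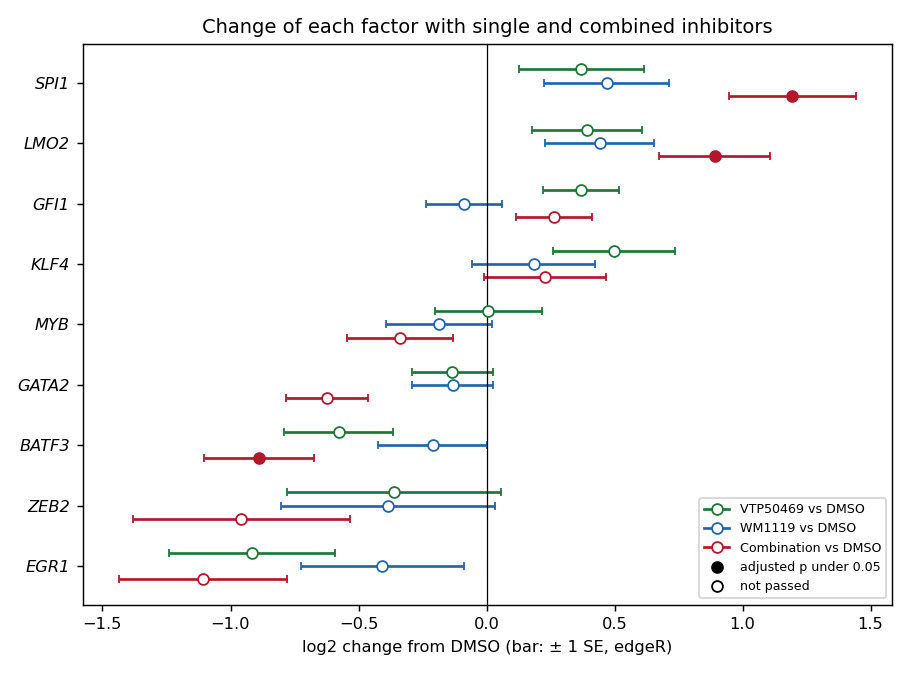
Change of each factor from DMSO in log2 units (horizontal axis) with VTP50469, WM1119 and both (2 libraries per group), with bars of 1 SE from edgeR; filled points passed an adjusted p of 0.05. Only SPI1, LMO2 and BATF3 have filled points, all in the combination.

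Non-overlap of libraries was common over the whole table and is read against that background. With VTP50469, 4 members had both libraries above DMSO and 4 had both below (27.3% and 27.6% of all genes). With WM1119 the counts were 2 above and 6 below (24.1% and 20.9% of all genes). In the combination 4 were above and 5 below (29% and 30.9% of all genes). All 6 treated libraries lay above DMSO for SPI1 and LMO2 (11.4% of all genes) and below it for EGR1, ZEB2, BATF3 and GATA2 (11% of all genes). The 3 treatments share the same 2 DMSO libraries.

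The 2 combination libraries differed from each other along transcript length over the whole table. In replicate 2 the median log2 difference from DMSO over all genes was 0.656 for transcripts up to 2 kb, -0.0780 for 2 to 5 kb and -0.717 above 5 kb, against 0.0502, -0.00213 and -0.0974 in replicate 1. SPI1 has a transcript of 1374 bases and LMO2 of 2081, and both stood higher in replicate 2; ZEB2, with 9265 bases, stood lower there. BATF3, with the shortest transcript of the 9 at 836 bases, was below DMSO in both libraries and less so in replicate 2. EGR1 (3137 bases) and MYB (3684 bases), of middle length, were also lower in replicate 2, and GATA2 (3383 bases) lay at like levels in both. The part of transcript length in these values was not tested beyond the offset. WM1119 replicate 1, where SPI1 and LMO2 were higher and ZEB2 and MYB lower than in its partner, had medians of 0.209, 0.00623 and -0.241. The offset for length and GC content, fitted in edgeR, called 6 members in the combination, SPI1, LMO2 and GFI1 higher and EGR1, BATF3 and GATA2 lower, and 22.8% of all genes.

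**Figure D4:**
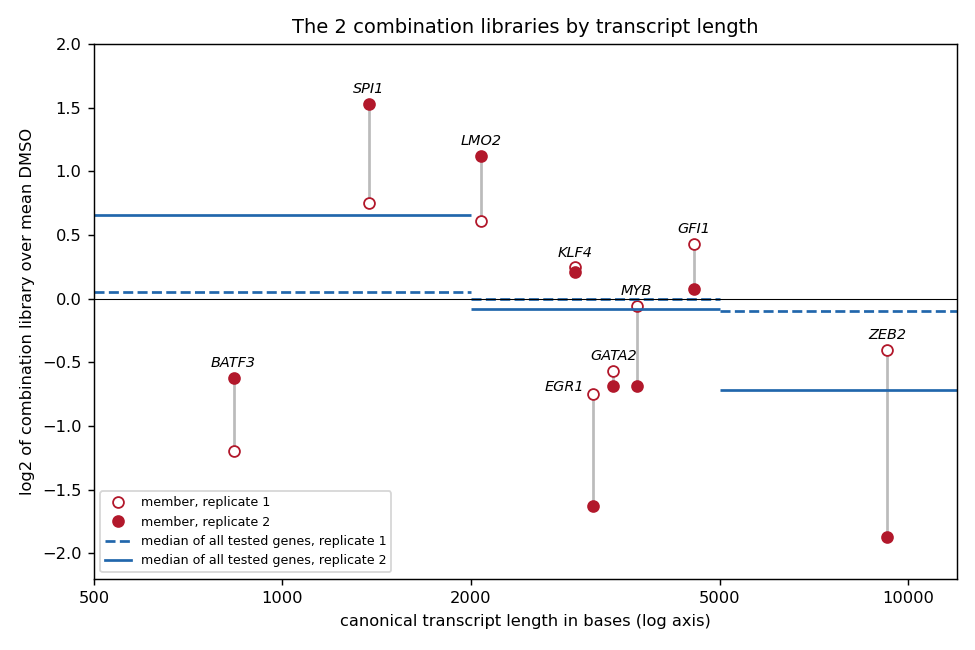
Log2 of each combination library over the mean of DMSO (vertical axis) against canonical transcript length in bases (log axis), 1 pair of points per factor. Open points are replicate 1 and filled points replicate 2; blue lines are medians of all tested genes in 3 length classes, at 0.656 for the shortest and -0.717 for the longest in replicate 2.

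Ratios of counts within a library do not depend on the scaling of library totals. They still take up library differences along transcript length where the 2 genes differ in length. SPI1 has 1374 bases, against 3383 for GATA2 and 4554 for GFI1. Such differences were largest in combination replicate 2 and WM1119 replicate 1, and their part in the ratios was not tested. SPI1 over GATA2 was 12.1 and 12.6 in DMSO, 16.2 and 18.9 with VTP50469, 20.9 and 16.9 with WM1119, and 30.9 and 57.6 in the combination. The ratio did not overlap between DMSO, the single inhibitors and the combination. GFI1 over EGR1, the pair often set against each other, was 14.7 and 16.1 in DMSO, 32.2 and 44.8 with VTP50469, 17.9 and 20.7 with WM1119, and 34.8 and 50.2 in the combination. This ratio was high wherever VTP50469 was present, and with WM1119 alone it lay above DMSO but below every library with VTP50469. Of 8 ratios computed SPI1 over LMO2 varied least, from 2.06 to 2.90 over the 8 libraries, and SPI1 over GFI1 went from 1.39 and 1.41 in DMSO to 1.75 and 3.83 in the combination. These ratios were picked after the values were seen and carry no test.

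**Figure D5:**
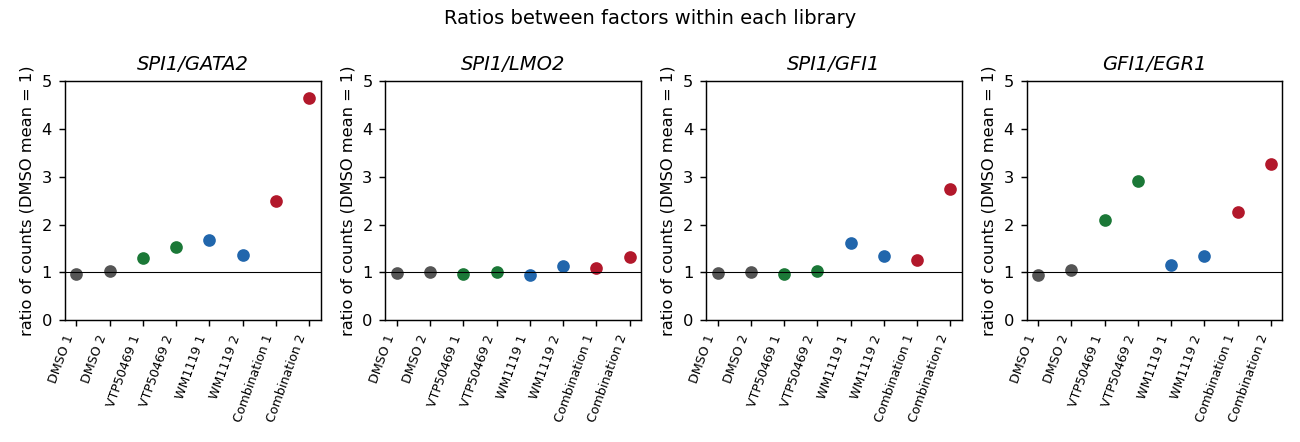
Ratio of counts of 2 factors in each library, divided by the mean ratio in DMSO (vertical axis, from 0; line at 1), for SPI1/GATA2, SPI1/LMO2, SPI1/GFI1 and GFI1/EGR1. The 2 combination libraries reach 2.5 and 4.66 times the DMSO mean for SPI1/GATA2, and GFI1/EGR1 is at 2.09 or more in the 4 libraries with VTP50469. The ratios are not adjusted for transcript length.

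Profiles over the 8 libraries were compared by the root mean square difference of log2 CPM, after each gene was centred on its own mean, among 11257 genes with a mean of at least 1 CPM. Nearest to SPI1 were ZBTB48 (0.0399) and RGS19 (0.0575), with LMO2 as number 200. EGR1 lay nearest to CCR1 (0.106) and SMAD3 (0.131), ZEB2 to XPR1 (0.0517) and PPARGC1B (0.0582), and MYB to NDFIP2 (0.0238) and ADO (0.0293). GATA2 was closest to CDC25A (0.0446) and XPO6 (0.0455), GFI1 to OMA1 (0.0616) and HYOU1 (0.0671), and LMO2 to FAHD2B (0.0669) and GRIPAP1 (0.0701). KLF4 lay nearest to NRG4 (0.0935) and DNAL1 (0.110), and BATF3 to IRGQ (0.118) and NME4 (0.120). Among the members the closest pair was SPI1 and LMO2 (0.151), followed by MYB and GATA2 (0.179), and the most distant was SPI1 and ZEB2 (1.01). These distances describe 8 libraries that share their depth and length profile.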

How the data were processed

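RNA of 8 MOLM-13 libraries was sequenced with 150 bp paired-end reads. The authors mapped them to hg38 with STAR 2.5.1b and deposited expected counts (estimated counts) per gene symbol; for counting, neither tool, strand setting nor annotation is given in the sources used here. Counts were rounded and fitted by edgeR 4.0.16 under R 4.3.3, with genes kept by filterByExpr (12401), TMM scaling and the quasi-likelihood F test in 1 model of the 4 groups. Calls are at a Benjamini-Hochberg adjusted p under 0.05 over all genes. CPM uses TMM-scaled library sizes. Transcript lengths come from GENCODE release 44. Alternatives were DESeq2 1.42.0, limma 3.58.1 with a quality weight per library, other scalings and filters, a replicate block, an offset for length and GC content (loess span 0.4), a fit of only the groups compared, and leaving out each library. Scripts were tested on simulated data. The members and the 18 lists were chosen with earlier results of these data known. Genes named from lists are mostly the 3 of lowest p in the combination, plus those called elsewhere, and for likeness the 2 nearest profiles. Other list genes, such as FLI1, BTK, JUNB, MSR1, CD14 and IL1B, are named outside this rule. Results of some genes that this rule names are left out here.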

Additional observations from a re-analysis of the deposited data

How the results depend on the processing

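The 3 member calls in the combination became 5 with DESeq2, 1 with RLE factors, 6 with the offset for transcript length and GC content, 1 when limma gave each library a quality weight and 0 with only the groups compared in the fit, and ranged from 0 to 7 without 1 library each (0 when the library left out was from DMSO or a single inhibitor; 7 and 4 without combination replicate 1 and 2). All genes called then numbered 1152 in edgeR, 2288 with DESeq2, 2830 with the offset, 366 with quality weights, 0 with only the groups compared, and 69 to 7756 without 1 library each. An arm left with 1 library is assumed to vary like the others. As a share of all genes tested, calls with all 8 libraries made up 9.29% in edgeR, 17.7% with DESeq2 and 9.33% with RLE factors. The share was 22.8% with the offset and 2.95% with quality weights. For VTP50469 against DMSO, 5 members were called with quality weights and 6 with only the groups compared (0 otherwise), along with 9.39% and 11.1% of all genes. The combination against VTP50469 called 1 member with DESeq2 and 2 with the offset (5.3% and 5.48% of all genes). Against WM1119 it called 3 with the offset (7.49%). VTP50469 against WM1119 called 1 with quality weights (1.77%), and the interaction called 0 in each setting with all 8 libraries. Leaving out combination replicate 1 raised the count of members called by edgeR in all 4 of these comparisons. For VTP50469 against WM1119, leaving out combination replicate 2 did so too. WM1119 against DMSO called 0 members in each setting run, where DESeq2 called 0.62% and quality weights 1.38% of all genes. The sources used here do not say if the replicate numbers pair the libraries. Correlations of replicate deviations between groups (-0.443 to 0.173) cannot settle this, since replicates of WM1119 and of the combination also differ along transcript length. With a replicate block 0 members were called in the combination, with 528 genes in all, and SPI1 was at edgeR adjusted p 0.0588.

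No value whose direction turned was called, but in their first direction GFI1 against VTP50469 (edgeR adjusted p 0.0341) and ZEB2 and MYB against WM1119 (0.000766 and 0.00754) were called without combination replicate 1. Those that turned were MYB with VTP50469 (log2 -0.0018 by DESeq2, -0.0026 with RLE factors, -0.00057 by library size only, -0.034 without VTP50469 replicate 2, -0.0060 without WM1119 replicate 2; -0.034 to 0.035 without 1 library each); in the combination against VTP50469, GFI1 (0.055 with the offset, 0.068 without combination replicate 2, -0.30 without replicate 1), KLF4 (0.0023 and -0.51 without VTP50469 replicate 1 and 2) and EGR1 (0.048 without VTP50469 replicate 1, 0.18 without combination replicate 2, -0.72 without replicate 1); and against WM1119, KLF4 (-0.049 by library size only, -0.054 and 0.14 without WM1119 replicate 2 and 1), ZEB2 (0.0045 and -1.50) and MYB (0.15 and -0.51), both without combination replicate 2 and 1. The cause was not tested. Scaling by library size only moved 6 of 36 group means by more than 1 SD. EGR1, KLF4 and GATA2 had 129 to 476 counts per group, which limits their precision.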
